A study of Caenorhabditis elegans with 2 samples.

Results

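The 38 genes described here encode initiation and elongation factors of translation in Caenorhabditis elegans, and the data give the sites near them at which ZTF-16, a zinc-finger protein, was recovered by chromatin immunoprecipitation and sequencing. They were chosen by name alone: every protein-coding gene on the nuclear chromosomes of Ensembl WBcel235 with a name that begins with eif-, eef-, ife-, ifg-, iffb- or iftb-, which is 38 of 19973 genes. Names with iftb- were not found, and subunits under other names are outside this choice. The study held 1 group of 2 biological replicates and no second condition. Both were late embryos of strain OP558, whole animals of mixed sex, 5 hours after synchronisation by bleaching, with the genotype unc-119(tm4063) III and the integrated transgene wgIs558, which carries ZTF-16 with a GFP and FLAG tag at its C terminus. The antibody was against GFP, so the lists describe the tagged protein from an added transgene, averaged over all cell types of the embryo. A peak list from animals without the tagged protein was not analysed here.

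Translation starts when the small ribosomal subunit, held by initiation factors, loads the initiator tRNA and finds a start codon on a capped mRNA. Factor eIF2 carries the initiator tRNA and is recharged with GTP by eIF2B. The many-subunit eIF3 scaffolds the complex, and eIF4E and eIF4G bring in the capped mRNA. Elongation then uses eEF1A to deliver aminoacyl-tRNAs and eEF2 to move the ribosome along. Most of these genes are active in nearly all cells. In this worm many mRNAs receive a spliced leader, so an annotated 5' end can lie downstream of the place where transcription starts. ZTF-16 belongs to the family of Hunchback in flies and Ikaros in mammals.

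Sequences around the summits of 7 of the genes are shown, without those at the thresholded sites of eif-3.C, eif-3.E, eif-3.I, eef-2 and eif-3.J. The 7 sequences cover sites from the end of the authors' thresholded list, at eef-1A.1 and eif-3.B, and 5 sites ranked below it. Each runs 5' to 3' on the strand of the named gene, covers 50 bp to either side of the summit of the strongest pooled peak (101 bases) and was read from the RefSeq genome of WBcel235, the assembly that ce11 denotes. The coordinates are chrIII:6972058-6972158 on the minus strand for eef-1A.1, and on the plus strand chrII:14795064-14795164 for eif-3.B, chrII:8442449-8442549 for eif-3.G, chrX:7823304-7823404 for eef-1A.2, chrV:10965605-10965705 for eef-1G, chrIV:4810529-4810629 for eif-1.A and chrX:1103761-1103861 for ife-4. Capitals mark matches, on either strand, to 5 short motifs that are described further on, and a line without capitals has none.
eef-1A.1: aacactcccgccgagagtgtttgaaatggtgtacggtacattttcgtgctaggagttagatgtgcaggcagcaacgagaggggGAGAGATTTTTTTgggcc
eif-3.B: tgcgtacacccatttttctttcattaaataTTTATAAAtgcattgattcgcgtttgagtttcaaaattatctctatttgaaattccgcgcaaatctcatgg
eif-3.G: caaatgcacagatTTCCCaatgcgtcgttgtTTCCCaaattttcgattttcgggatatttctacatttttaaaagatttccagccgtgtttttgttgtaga
eef-1A.2: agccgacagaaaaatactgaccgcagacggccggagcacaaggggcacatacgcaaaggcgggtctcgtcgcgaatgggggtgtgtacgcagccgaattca
eef-1G: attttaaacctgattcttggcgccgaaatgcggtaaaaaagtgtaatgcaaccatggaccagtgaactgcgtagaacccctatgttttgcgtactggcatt
eif-1.A: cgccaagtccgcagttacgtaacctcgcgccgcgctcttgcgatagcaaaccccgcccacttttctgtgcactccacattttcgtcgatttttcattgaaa
ife-4: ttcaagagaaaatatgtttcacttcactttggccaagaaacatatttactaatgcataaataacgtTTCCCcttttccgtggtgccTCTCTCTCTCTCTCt
The windows differ in base composition. The GC content was 59.4% for eef-1A.2, 52.5% for eif-1.A, 50.5% for eef-1A.1, 43.6% for eef-1G, 37.6% for ife-4, 35.6% for eif-3.G and 31.7% for eif-3.B.

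Peaks lay near these genes in a larger share than near protein-coding genes at large. A gene was counted when the summit of a peak fell in the window reaching 1000 bp before and 200 bp past its annotated 5' end. The authors' list thresholded by irreproducible discovery rate (IDR), a procedure that weighs how alike peaks rank in replicates, is labelled optimal and holds 822 peaks. These equal the first 822 pooled peaks in signal, and a listed peak can rank much lower in a single replicate, as given below. The list placed a summit in the window of 7 of the 38 genes (18.4%), where the share of all genes was 3.29%. This count was smaller when replicate 1 was left out: the 822 strongest peaks of replicate 2 alone reached 4 of the 38 (10.5%), against 3.18% of all genes. Among the upper 411 peaks of the thresholded list by signal it was 2 (5.26%), against 1.67%. The relaxed list of the pooled replicates holds 14968 peaks, many of which may be background, and it reached 29 of the 38 (76.3%) against 23.5% of all genes. Relaxed lists of both replicates each had a summit in the window, not always at the same place, for 23 of the 38 (60.5%) against 15.7% of all genes. With the summits of the replicates within 200 bp of each other it was 20 (52.6%) against 12.8%. Taken singly, the list of replicate 1 reached 26 genes (68.4%), against 29.4% of all genes, and that of replicate 2 reached 27 (71.1%), against 26.2%. These shares are descriptions of the lists, with no test. The lists carry no read numbers, so the depth is unknown.

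**Figure D1:**
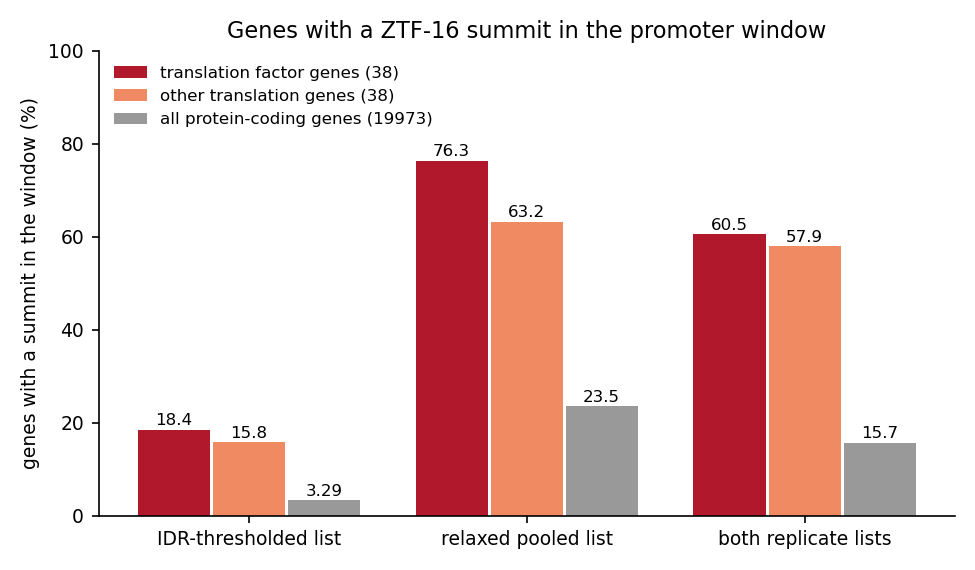
Bars give the percentage of genes with a summit in the promoter window (vertical axis) in the IDR-thresholded list, the relaxed pooled list and both replicate lists, for the 38 translation factor genes, 38 other translation genes and all 19973 protein-coding genes. The translation factor bars stand at 18.4%, 76.3% and 60.5%, above the grey bars of all genes at 3.29%, 23.5% and 15.7%. The bars of the other translation genes, a broad list that also holds regulators, are at 15.8%, 63.2% and 57.9%, above the grey bars too.

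By role, the thresholded summits fell in 2 classes, eIF3 and the elongation factors. They were at 5 of the 11 eIF3 genes and 2 of the 6 elongation genes, where the share of all genes was 3.29%. The eIF3 count leaves out egl-45 and cif-1, eIF3 genes under other names, which had no summit in any list. Without replicate 1, among the 822 strongest peaks of replicate 2, the classes differed: the count was 2 for eIF3 (eif-3.C and eif-3.E), 1 for elongation (eef-1G, which is not in the thresholded list) and 1 for subunit joining (eif-6). In the thresholded list the other classes had 0 summits, namely 7 genes of start-codon selection and initiator tRNA delivery, 5 genes of eIF2B, 7 genes of cap binding and the eIF4 group, and 2 genes of subunit joining. With the relaxed pooled list the counts came closer together, with all 6 elongation genes, both subunit joining genes, 4 of 5 eIF2B genes, 8 of 11 eIF3 genes, 5 of 7 genes of start-codon selection and 4 of 7 of the cap-binding group. The relaxed pooled list reached 23.5% of all genes. The classes hold few genes, and differences between them were not tested.

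**Figure D2:**
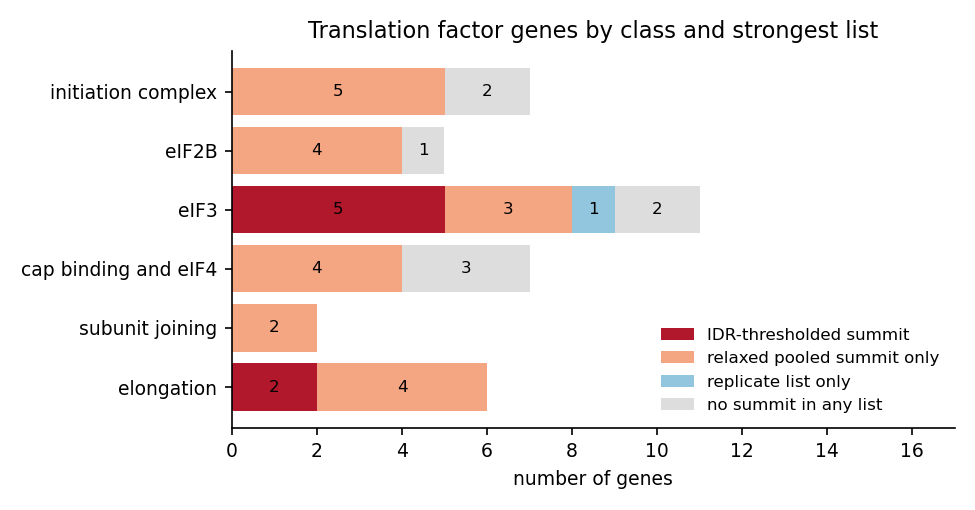
Stacked bars count the genes of each class (horizontal axis, number of genes) by the strictest list with a summit in the window. Red segments, genes in the IDR-thresholded list, appear for eIF3 with 5 genes and elongation with 2, and the remaining classes have none.

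The strongest site of the family was at eif-3.C (WBGene00001226, I:9976426 to 9979662, minus strand), which encodes a scaffold subunit of eIF3. The authors' signal value, given by their peak caller and comparable only within 1 list, was 194.9 in the pooled list, 89.8 in replicate 1 and 97.9 in replicate 2. The ranks were 101, 128 and 103, so both replicates placed it near the top. The summit, at I:9979883, was intergenic and 221 bp upstream of the gene, and no other gene had it in its window. The next, at the eIF3 gene eif-3.E (WBGene00001228, I:10640465 to 10642281, minus strand), had signals of 140.5 in the pool, 76.1 in replicate 1 and 59.1 in replicate 2, with ranks of 231, 211 and 347. Its summit, at I:10642502, was also 221 bp upstream, in intergenic sequence, with the oppositely oriented B0511.17 527 bp away on the other side. These were the 2 genes of the family among the upper 411 peaks of the thresholded list by signal.

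The other 3 eIF3 genes in the thresholded list ranked lower in replicate 2 than in replicate 1. At eif-3.I (WBGene00001232, I:2485861 to 2489787, plus strand), for a beta-propeller subunit, the signal was 98.2 in the pool (rank 504), 54.2 in replicate 1 (rank 469) and 33.9 in replicate 2 (rank 1278). Its summit at I:2485633 was 228 bp upstream and nearly midway between eif-3.I and abtm-1, an ABC transporter gene on the opposite strand whose 5' end was 242 bp away. At eif-3.J (WBGene00012738, I:13435489 to 13437963, plus strand), for a loosely attached subunit, the signals were 80.1 (rank 768), 49.5 (rank 561) and 27.8 (rank 2373) in the same order. That summit, at I:13434549, was 940 bp upstream, inside an untranslated exon of the neighbour slc-25A46, and it left the count when the window was shortened to 500 bp. At eif-3.B (WBGene00001225, II:14795404 to 14798235, plus strand), for a core subunit, they were 79.6 (rank 782), 44.7 (rank 720) and 32.0 (rank 1500), with an intergenic summit at II:14795114, 290 bp upstream, and no other gene within reach.

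The 2 elongation genes in the thresholded list were eef-2, which encodes the translocase, and eef-1A.1, which encodes eEF1A. At eef-2 (WBGene00001167, I:9163531 to 9166952, plus strand) the signal was 80.9 in the pool (rank 753), 48.1 in replicate 1 (rank 597) and 31.9 in replicate 2 (rank 1518). The summit at I:9163547 was 16 bp downstream of the 5' end, in the untranslated exon of eef-2, and 281 bp upstream of clsp-1 on the other strand. At eef-1A.1 (WBGene00001168, III:6970026 to 6971712, minus strand) the signal was 80.6 in the pool (rank 760), 52.2 in replicate 1 (rank 510) and 27.6 in replicate 2 (rank 2447). Here the assignment is shared: the summit at III:6972108 was 396 bp upstream of eef-1A.1 but 145 bp upstream of rfc-4, a replication factor C gene on the opposite strand, and within 200 bp of the miRNA gene mir-5549. The nearest summit of replicate 1 lay 139 bp from the pooled one, where that of replicate 2 coincided with it. A second pooled summit, 600 bp upstream with a signal of 55.0, was weaker. The sequence at the pooled summit, shown above, holds near its 3' end a purine stretch with a GAGAGA match that runs into 7 T bases.

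Of the 7 genes 5 are on chromosome I, where 12 of the 38 lie. Thresholded summits were at 41.7% of those 12 genes and at 7.69% of the 26 elsewhere, against 5.04% of all genes on that chromosome and 3.0% of all genes on the other chromosomes.

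A group of 3 further genes followed directly behind the end of the thresholded list, whose lowest signal was 77.4. The eIF3 gene eif-3.G had a pooled signal of 75.6 and ranks of 868 in the pool, 840 in replicate 1 and 1640 in replicate 2. The gene eef-1A.2, a second eEF1A gene, had 75.2 with ranks of 880, 829 and 1381. The gene eef-1G, for the gamma subunit of the eEF1 exchange factor, had 74.7 with ranks of 895, 1328 and 808. These signals differ by little from the 79.6 of eif-3.B inside the list, so the thresholded count rests on where that list ends. The summits were 268 bp upstream of eif-3.G, 300 bp upstream of eef-1A.2 and 64 bp upstream of eef-1G, the last shared with ctf-4, 116 bp away on the opposite strand.

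Genes of other classes came next in the pooled list. The gene eif-1.A, for the start-codon selection factor eIF1A, had a signal of 66.01 (rank 1162) with the summit 355 bp upstream, and replicate ranks of 4259 and 1105. The cap-binding gene ife-4, one of 5 eIF4E genes, had 65.96 (rank 1164) at 401 bp upstream, with replicate ranks of 987 and 3768. Both were several times further down in 1 replicate than in the other. The gene eif-6, whose product keeps the large subunit from joining early, had 60.8 (rank 1445) with its summit 314 bp upstream, on the side facing pbs-2, a proteasome gene 352 bp away. Its replicate ranks were 6209 and 709, so replicate 2 alone would have placed it among the strongest 822. The gene eif-4A3, a DEAD-box helicase of the exon junction complex despite its name, had 59.7 (rank 1529), but the summit was 10 bp from the 5' end of vps-20 and 449 bp from that of eif-4A3. Its ranks were 7775 and 1161.

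Of the remaining named summits, those of eif-3.H and eif-3.D were nearer to a neighbour. At eif-3.H the pooled signal was 64.1 (rank 1265), with ranks of 982 and 4006, and the summit lay 194 bp from eif-3.H and 176 bp from C41D11.3. At eif-3.D the signal was 54.2 (rank 1965), and the summit was 247 bp from eif-3.D and 67 bp from R08D7.4, with a rank of 19405 in replicate 1 and 1784 in replicate 2. Replicate 1 therefore placed the eif-3.D site close to the bottom of its 21235 peaks. The gene eif-2Bgamma, for a subunit of the exchange factor eIF2B, had a summit of signal 53.3 (rank 2068) 914 bp upstream, in an intron of C15F1.5 and within 200 bp of sup-39 and mir-1831, both annotated as snRNA genes. A second summit of that gene, 23 bp upstream, had a signal of 47.6 (rank 2956). The eIF4E gene ife-2 had 52.3 (rank 2185) at 195 bp upstream, with ranks of 3226 and 2057 that lay closer together. The eIF2B gene eif-2Bbeta had 38.9 (rank 5731) at 77 bp downstream, in its own intron, with ranks of 10206 and 9125.

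The last 10 genes with a pooled summit had signals from 29.0 to 38.2, in a list whose lowest value was 28.4 and whose median was 35.9. They were eif-2Balpha, eef-1B.1, eif-1, eif-2D, iffb-1, eif-2gamma, eif-2Bepsilon, eef-1B.2, ife-3 and eif-2alpha. The first 4 were just above that median, at 36.3 to 38.2, and the other 6 were below it, at 29.0 to 34.0. The list is meant to include background, and whether these weak sites belong to it was not tested. For eif-2alpha, the eIF2 subunit whose phosphorylation slows initiation, the summit was in a coding exon of phb-1, 661 bp upstream, at rank 14140 of 14968. The genes eef-1B.1 and eif-2gamma each had 3 such weak summits in the window.

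No pooled summit was in the window of 9 genes: eif-2A, eif-2Bdelta, eif-2beta, eif-3.F, eif-3.K, eif-3.L, ife-1, ife-5 and ifg-1. These include ifg-1, the single eIF4G gene, and ife-1 and ife-5, eIF4E genes known from the germ line. One of them, eif-3.K, had a summit in replicate 1 (signal 18.4, rank 11508), and the other 8 (21.1% of the 38) had none in any list, where 59.6% of all genes had none. The nearest pooled summit to the 5' ends of the 9 genes was 397 bp away for ife-1, inside the gene, and 10205 bp away for eif-2Bdelta, with the rest between. For eif-2Bdelta that nearest summit was also in the thresholded list.

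The strongest pooled summits lay mostly upstream and in intergenic sequence, as they did for genes at large, and the window itself reaches further upstream than downstream. For the 29 genes the median distance was 290 bp upstream, with quartiles of 401 and 194 bp upstream, and it was 282.5 bp upstream for the 4688 genes of the whole annotation with a pooled summit. Of the 29, 24 were upstream (82.8%, compared with 87.5% of the 4688) and 19 were intergenic (65.5%, compared with 71.7%). The others were 4 in introns, 3 in untranslated exons and 3 in coding exons. The median rank of the strongest pooled summit was 1529 for the 29 genes and 4961 for the 4688.

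**Figure D3:**
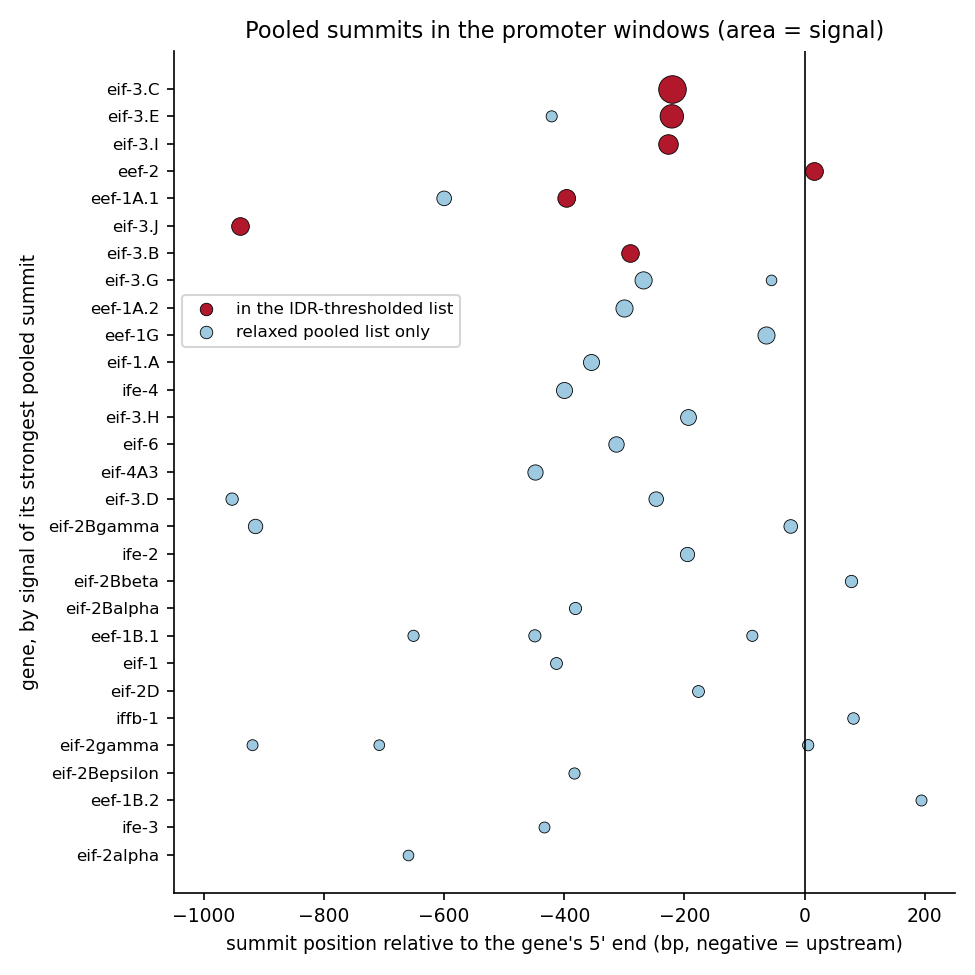
Each circle is a pooled summit in the window of a gene, placed by its distance from the annotated 5' end in bp (horizontal axis, negative upstream, 0 at the line) and sized in area by signal, with genes ordered by their strongest summit. Red circles are in the IDR-thresholded list. Those of eif-3.C, eif-3.E and eif-3.I stand at almost the same distance, 221 to 228 bp upstream, while those of eef-2 and eif-3.J lie at 16 bp downstream and 940 bp upstream.

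Many of these sites lie between 2 genes that are read in opposite directions. The strongest pooled summit was also in the window of at least 1 other gene for 16 of the 29 genes (55.2%), compared with 35.5% of the 4688. For 8 of the 29 another gene had the nearer 5' end, so the factor gene was the nearest for 72.4%, compared with 78.7%. A summit shared by a pair of 5' ends cannot be assigned to either from these lists. Small non-coding RNA genes (tRNA, snoRNA, snRNA, rRNA or miRNA) were within 200 bp of 2 of the 29 summits (6.90%), those of eef-1A.1 and eif-2Bgamma, and of 2.86% of the 4688.

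Genes placed close behind another gene on the same strand can share its promoter, as in the operons of this worm. Of the 38 genes 8 had a protein-coding neighbour on the same strand that ended within 500 bp upstream or overlapped the 5' end, and 5 of these had a pooled summit, among them eif-3.C, whose neighbour sys-1 ends 400 bp away. The other 3 were ife-1, ife-5 and eif-3.F, which starts 115 bp behind wbp-2. Of the remaining 30 genes 24 had a pooled summit (80.0%). Over all genes the shares were 19.9% with such a neighbour and 24.4% without. Which of these genes belong to operons was not analysed here.

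Most sites were found in both replicates, often at different ranks. A summit of each replicate lay within 200 bp of the strongest pooled summit for 20 of the 29 genes (69.0%), compared with 55.5% of the 4688 genes. For 7 genes replicate 2 alone matched, and for 2 (eif-1 and iffb-1) replicate 1 alone. Among the 20, 11 ranked nearer the top in replicate 1 and 9 in replicate 2. Over these 20 genes Pearson's r of the replicates' signals was 0.70 and Spearman's rho 0.27, given as a description, since the genes share both libraries and were all past the lists' lower limits. Without eif-3.C and eif-3.E, which were high in both, Pearson's r over the other 18 genes was -0.015. All 7 genes of the thresholded list ranked between 128 and 720 in replicate 1, but 5 of them ranked below 822 in replicate 2, down to 2447. Of all 822 thresholded peaks, 81.9% were within the first 822 of replicate 1 and 81.0% within the first 822 of replicate 2. Such a shift toward replicate 1 was therefore not seen over the whole list. The 5 genes had pooled ranks of 504 to 782, and thresholded peaks of like rank alone were not compared.

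**Figure D4:**
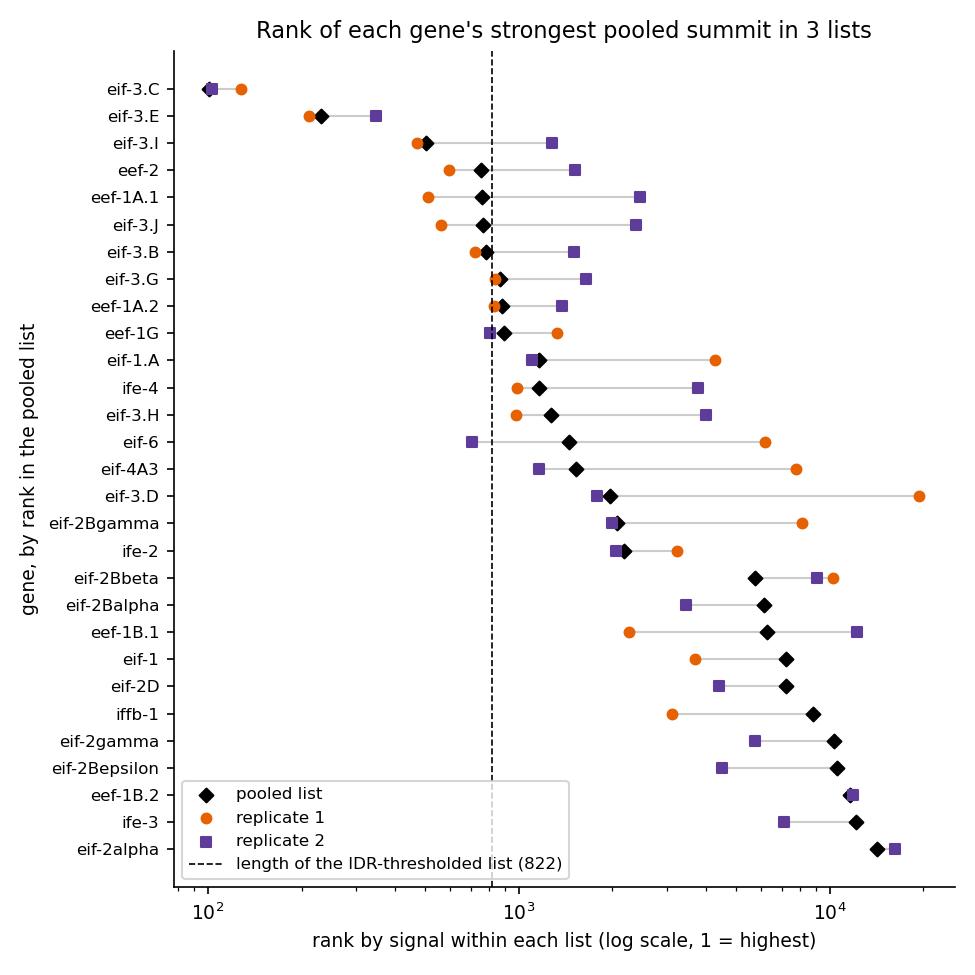
For each of the 29 genes with a pooled summit, points give the rank of that summit by signal (horizontal axis, log scale, 1 is the highest) in the pooled list, replicate 1 and replicate 2, joined by a line, with a dashed line at rank 822. The points of eif-3.C sit together between 101 and 128, while those of eif-3.D spread from 1784 to 19405.

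The sequence at the summits was described by GC content and by 5 short motifs. Windows of 101 bp had a GC content of 47.1% ± 7.27 (SD over 7 sites) at the thresholded summits of the family and 48.8% ± 8.07 over all 822, and 42.6% ± 8.55 at the strongest pooled summits of the 29 genes against 40.6% ± 9.46 over all pooled summits. The promoters of the 38 genes, taken as 250 bases before the 5' end and 50 after it, had 33.6% ± 5.67, close to the 34.8% ± 5.30 of all promoters. The motifs, searched as exact letters on both strands, were GGGAA, a core bound by Ikaros in mammals, AAAAAAA, an A-run of the kind bound by Hunchback in flies, GTTCGA from the internal promoter of tRNA genes, GAGAGA and TATAAA. None of the 5 contains another of them, though matches can overlap, as TATAAA matches on both strands do at eif-3.B.

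The promoter shares were close to those of all promoters. At the summits AAAAAAA was less frequent and TATAAA more frequent than over all pooled windows, on few windows and with no test. Those pooled windows come from all 14968 pooled summits, not only the strongest in each gene's promoter window, so the sets are not alike. GGGAA was in 39.5% of the 38 promoters and 43.5% of all promoters, and in 20.7% of the 29 summit windows and 19.8% of all pooled windows. AAAAAAA was in 47.4% and 52.3% of promoters, and in 1 of the 29 summit windows (3.45%), that of eef-1A.1, against 18.0% of all pooled windows. GTTCGA was in 7.89% and 9.85% of promoters and in 0 of the 29 summit windows, against 3.96%. GAGAGA was in 15.8% and 21.8% of promoters, and in 2 summit windows (6.90%), those of eef-1A.1 and ife-4, against 10.3%. TATAAA was in 42.1% and 37.9% of promoters, and in 17.2% of summit windows against 8.16%, which is 5 windows of 29. At the 7 thresholded summits of the family GTTCGA was found 0 times, where 12.8% of all thresholded windows held it. AAAAAAA and TATAAA were each in 1 of the 7 (14.3%), against 9.49% and 5.96% of all thresholded windows. GGGAA and GAGAGA were also each in 1 of the 7 (14.3%), against 20.9% and 19.8%. Of the 7 windows 4 (eif-3.C, eif-3.E, eif-3.I and eef-2) held none of the 5 motifs. The share of all thresholded windows with none was not computed, and each motif was in only 5.96% to 20.9% of them. A match or its absence describes these letters only.

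Other genes of translation, outside the name prefixes, were counted in the same way. Their list is broad: besides factors it holds regulators such as atf-4, let-363 and rict-1, and mitochondrial factors such as tufm-1. The genes gfm-1 and rict-1 were counted through the same strongest pooled summit. Of 41 listed names 38 were in the annotation, and as in the family their shares were above those of all genes. A pooled summit was at 24 of them (63.2%), against 76.3% of the family and 23.5% of all genes. Summits of both replicates, not always at the same place, were in the window of 22 (57.9%), against 60.5% of the family and 15.7% of all genes. A thresholded summit was at 6 (15.8%), against 18.4% of the family and 3.29% of all genes. The highest was ifet-1, which encodes an eIF4E-binding repressor (pooled signal 234, rank 56), but its summit was nearer to rps-1, at 246 bp against 522 bp. It was followed by larp-1 (175, rank 133), also nearer to a neighbour, wip-1, and by iff-2, an eIF5A gene (172, rank 139), with the summit 64 bp upstream. The release factor gene erfa-3 (125.5, rank 299) and drr-2, an eIF4H gene (125.3, rank 300), had summits 285 and 138 bp upstream. The sixth, abcf-2 (94.3, rank 556), had its summit 863 bp upstream, beside ant-1.1. For iff-2, erfa-3 and drr-2 the factor gene had the nearest 5' end. Their ranks in replicates 1 and 2 were 101 and 280 for iff-2, 316 and 313 for erfa-3, and 276 and 340 for drr-2. The eIF4A gene inf-1 had a pooled summit of 29.4 (rank 13575), near the bottom of that list. The 2 eIF3 genes with other names, egl-45 and cif-1, added after the values of the family were seen, had no pooled summit.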

How the data were processed

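Peaks of ZTF-16 chromatin immunoprecipitation in 2 replicates of 1 group were read from 4 deposited ce11 lists in narrowPeak format: the IDR-thresholded list, the relaxed pooled list and a relaxed list for each replicate. Relaxed lists used 1 shared control file, per the file notes deposited with the samples. The aligner, caller and IDR threshold were not given in the sources used here, and ranks use only the deposited signal. The signal value and the −log10 q-value are the authors' deposited caller output, comparable only within a list. The q-value was not used because many peaks share 1 value. The 822 thresholded peaks equal the first 822 pooled peaks in signal. Another 4 lists, in build ce10, were not used.

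Summits (1-based) were assigned to protein-coding genes of Ensembl release 115 (WBcel235), each to every window that held it. Bases came from RefSeq's WBcel235 genome. Python 3.11.15, numpy 2.4.6, pandas 2.3.3, scipy 1.17.1 and matplotlib 3.10.9 were used. Assignment was tested on simulated summits. Genes were named by rule: those in the thresholded list, the next 12 by pooled signal, those without a pooled summit, and other translation genes in the thresholded list. Other names were chosen after their values were seen. The members and lists were chosen with earlier results of these data known, and no p-value was computed.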

Additional observations from a re-analysis of the deposited data

How the results depend on the processing

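The thresholded count moved with the length of the list, the replicate and the chromosome. The thresholded count of 7 genes ran from 6 to 8 (15.8% to 21.1%), against 2.27% to 4.39% of all genes, under the following settings. These were shorter or longer windows, nearest 5' ends, any overlap, transcript 5' ends or no peaks near small non-coding genes. The count was 2 among the upper 411 peaks (5.26% of the 38, against 1.67% of all genes). It was also 2 of 26 without members on chromosome I (7.69%, against 3.0% of all genes off it), a restriction added after the data were seen. Without replicate 1 or replicate 2 in turn, with the 822 strongest peaks of the other, it ran from 4 (10.5%, against 3.18% of all genes) to 7 (18.4%, against 3.21%). The 4 found without replicate 1 were eif-3.C, eif-3.E, eef-1G and eif-6, and the cause was not tested. In all 9 alternatives chosen at the start eif-3.C and eif-3.E were counted, and eef-1A.1 in 5 of them. The pooled count of 29 ran from 22 (nearest 5' ends) to 31, and the count of 23 in both replicates from 19 to 28. The median offset of 290 bp upstream became 279 bp upstream with the nearest transcript's 5' end. Unknown depth and 440 bp peaks limit each position.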
